A study of Mus musculus with 24 samples.

Results

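The lung takes in foreign compounds with the air, and its airway lining holds a set of enzymes that oxidise them. The genes described here are 9 such enzymes in mouse lung, namely 5 cytochromes P450 (Cyp2f2, Cyp2b10, Cyp4b1, Cyp2s1 and Cyp2e1), 2 flavin-containing monooxygenases (Fmo1 and Fmo2), the aldehyde dehydrogenase Aldh1a1 and the P450 reductase Por. They were listed by symbol, and the rows of the count table were found by the Ensembl identifier behind each symbol. All 9 were among the 78275 genes of the table, and all 9 were among the 17490 genes that passed a filter on low counts. The list was drawn up for lung enzymes found in club cells, the secretory cells of the bronchioles, but whole lung was sequenced and several of the 9 are also made elsewhere in the lung.

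As background, a microsomal P450 inserts an oxygen atom into its substrate with electrons that Por hands over from NADPH, and most P450s of the endoplasmic reticulum depend on this single reductase. Flavin-containing monooxygenases oxygenate nitrogen and sulfur atoms with their own flavin and need no Por, and Aldh1a1 turns aldehydes into acids. In mouse lung the club cell is the best known site of such reactions: Cyp2f2 turns naphthalene into epoxides that injure the very cell that makes them, and club cell loss after naphthalene is a standard model of airway injury.

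The libraries came from lungs of male C57BL/6 mice, 20 weeks old, in 8 groups of 3 libraries each. RIC+DE animals had remote ischemic conditioning, in which blood flow to the left leg was stopped and restored (3 cycles of 5 min each way, on 3 days a week over 4 weeks), ahead of diesel exhaust. DE+RIC animals had the same conditioning in the course of the exposure. DE+PFD animals breathed the exhaust and were given pirfenidone by mouth, an antifibrotic drug, at 300 mg/kg a day on 6 days a week in 0.5% carboxymethylcellulose. RIC+DE+PFD and DE+PFD+RIC animals had the drug together with conditioning ahead of the exposure or in its course. DE animals breathed diesel exhaust alone (30 min a day, 5 days a week, for about 8 weeks), RIC animals had conditioning alone, and C animals had neither. The labels name no group that took carboxymethylcellulose without the drug, so a pirfenidone contrast covers both. The labels do not say whether each library is 1 animal, and p-values then measure the spread between these libraries, which may be partly technical.

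Each library carries a date in March (9 libraries), October (14) or November (1), and the labels do not say what was done on that date. The 3 DE libraries are all dated October and the 3 RIC+DE libraries all March, so a difference between those groups is a difference between dates as well, and the fitted date term rests on the other groups. Total counts ran from 12224106 to 16925635 in March, from 3906807 to 11298160 in October, and were 18494156 in the November library, DE+RIC library 3. The date term takes up that single library whole, so the fitted DE+RIC values rest on the other 2. Of the libraries, 2 were taken as standing apart and were left out together as a check. RIC+DE+PFD library 1 lay at 120.9 on the first principal component, with the other 23 between -62.2 and 22.4, and its club cell marker sum was 188800 CPM. DE library 1 lay highest on the second component, at 63.8. RIC+DE library 1, which was kept in that check, lay lowest on the first component, at -62.2. On the second it came next after DE library 1, at 41.3. The raw counts behind the 9 enzymes ran from 106 for Cyp2e1 to 80766 for Cyp2f2 in a library.

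Levels are CPM, a gene's counts relative to the library's total count multiplied by its TMM factor, so CPM totals differ between libraries. The TMM factor was 0.6379 in RIC+DE+PFD library 1 and 0.922 to 1.158 in the other libraries. The low factor raised every CPM value of RIC+DE+PFD library 1, its club cell marker sum above included. Only comparisons between genes are made per kilobase of exon. Over all 24 libraries Cyp2f2 was the most abundant of the 9, at 1805 ± 573 CPM per kb (SD, n = 24). Cyp4b1 followed at 383 ± 63.5, Aldh1a1 at 307 ± 78.6 and Fmo2 at 160 ± 68.7 CPM per kb. Cyp2b10 stood at 136 ± 36.1, the reductase Por at 102 ± 17.5 and Fmo1 at 67.7 ± 10.1 CPM per kb. Cyp2s1 and Cyp2e1 were lowest, at 32.0 ± 5.39 and 20.5 ± 19.8 CPM per kb. The lowest library of Cyp2f2, at 1245 CPM per kb, lay above the highest library of every other enzyme, which was Cyp4b1 at 542 CPM per kb.

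The enzymes differed in how far they spread between libraries. The highest library over the lowest was 10.6 for Cyp2e1 and 4.88 for Fmo2, but 1.91 for Fmo1, 1.94 for Cyp2s1 and 2.03 for Cyp4b1. The coefficient of variation over the 24 libraries was 96.7% for Cyp2e1, 43.0% for Fmo2 and 31.7% for Cyp2f2, against 14.9% for Fmo1. The steadiest level within a group was that of Cyp4b1 in RIC, where the 3 libraries lay at 813, 807 and 807 CPM.

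**Figure D1:**
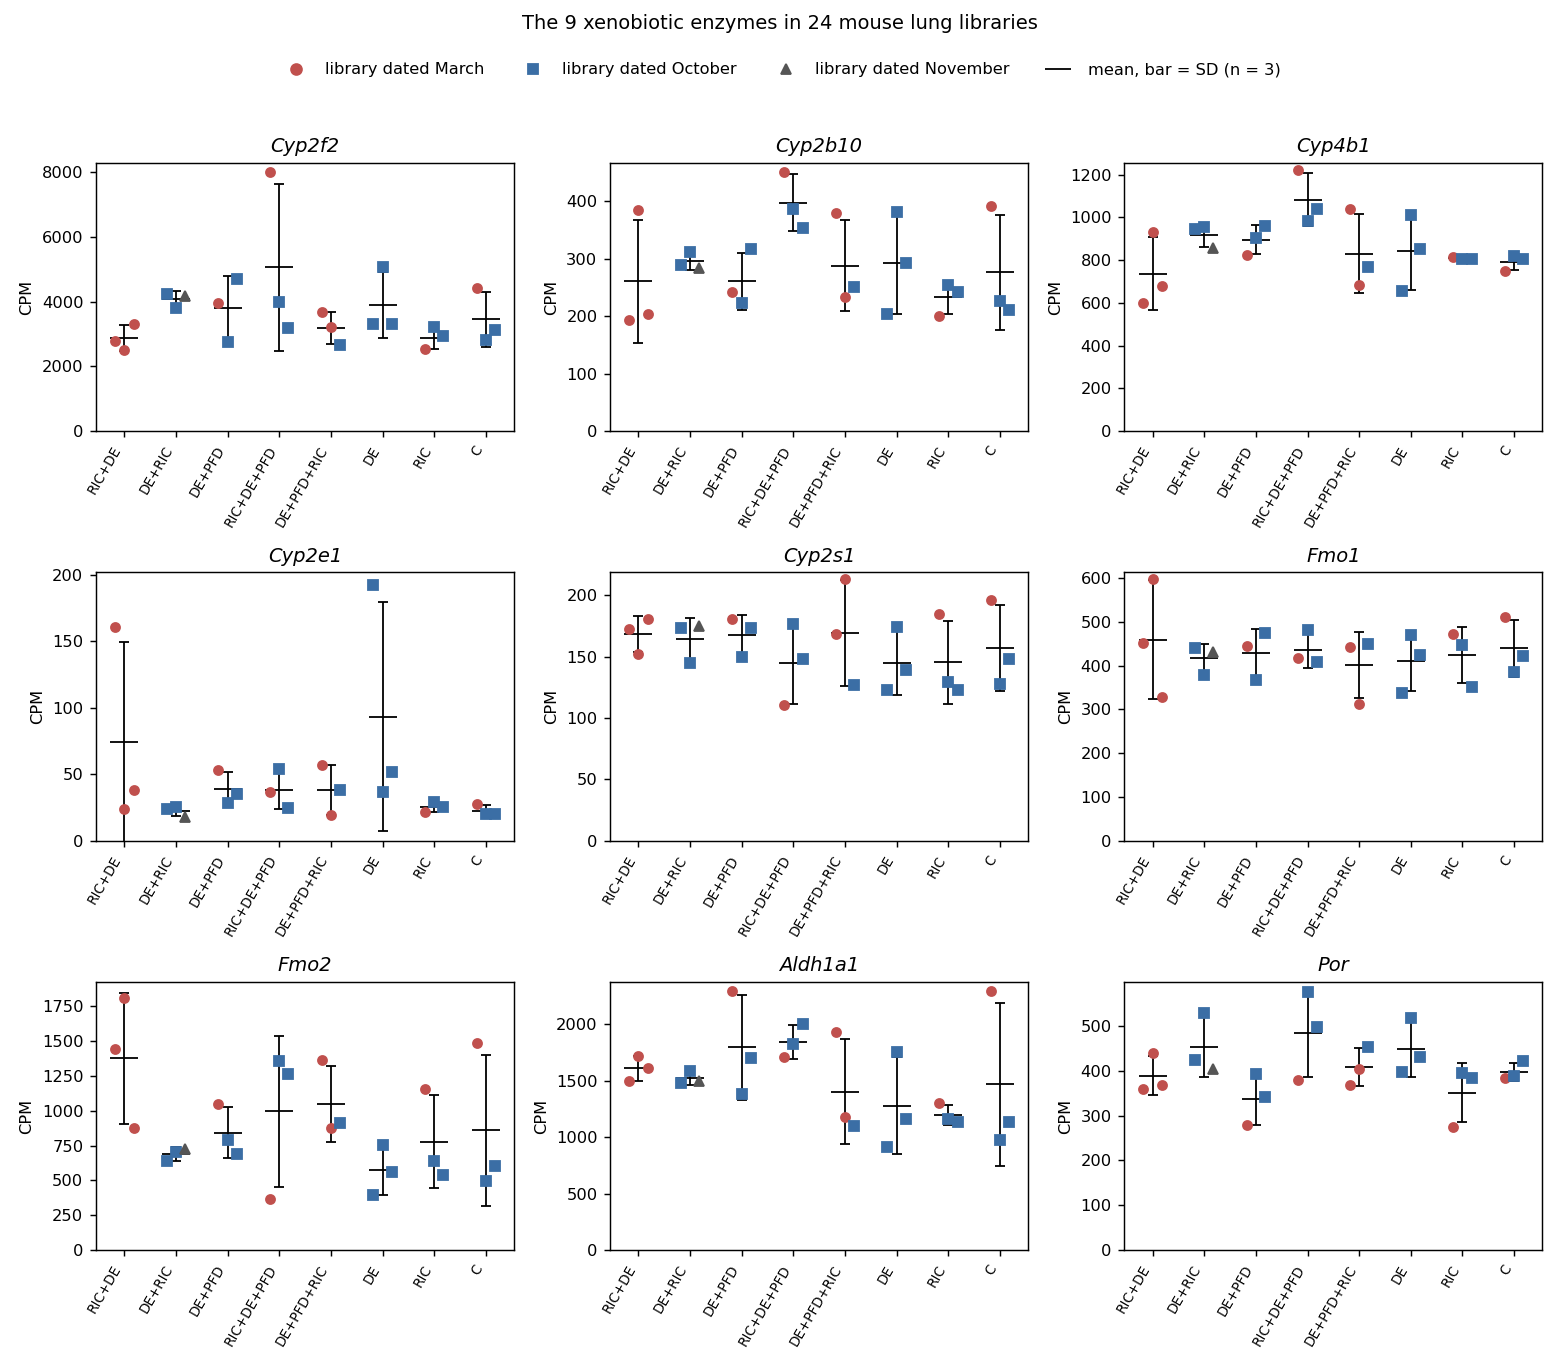
CPM (y axis, linear from 0) of each of the 9 enzymes in every library, in 8 groups of 3, with the mean and SD of each group; red circles, blue squares and grey triangles are libraries dated March, October and November. Cyp2e1 reaches 192 CPM in DE library 1 and 161 CPM in RIC+DE library 1 and 56.8 CPM or less in every other library, and Cyp2f2 reaches 8003 CPM in RIC+DE+PFD library 1.

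The promoter windows of 3 enzymes are shown, because they mark the 3 patterns met below: Cyp2f2 is the most abundant enzyme, Cyp2b10 is the one whose level moved most with it, and Cyp2e1 moved with neither. RefSeq's promoter table on build GRCm38.p6 held windows for 8 of the 9 enzymes, each with 250 bases before the start of transcription and 50 after it. Capitals mark TATAAA, the textbook TATA box, or GCGTG, the core letters bound by the aryl hydrocarbon receptor with ARNT, each searched on both strands (GCGTG reads CACGC on the other). The windows are chr7:27119705-27120004 for Cyp2f2, chr7:25897408-25897707 for Cyp2b10 and chr7:140763569-140763868 for Cyp2e1, all on the plus strand and read 5′ to 3′.
Cyp2f2: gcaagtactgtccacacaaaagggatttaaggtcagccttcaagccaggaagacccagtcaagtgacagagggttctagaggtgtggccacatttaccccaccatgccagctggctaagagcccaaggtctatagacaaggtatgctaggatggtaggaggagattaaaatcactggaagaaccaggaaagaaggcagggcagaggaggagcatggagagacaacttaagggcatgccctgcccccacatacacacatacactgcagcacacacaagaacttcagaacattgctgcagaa
Cyp2b10: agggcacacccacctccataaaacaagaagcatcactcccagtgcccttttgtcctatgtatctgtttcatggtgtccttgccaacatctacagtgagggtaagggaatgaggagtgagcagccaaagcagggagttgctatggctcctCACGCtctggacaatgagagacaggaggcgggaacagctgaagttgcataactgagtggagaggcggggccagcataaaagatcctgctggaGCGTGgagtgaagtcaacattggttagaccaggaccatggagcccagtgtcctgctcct
Cyp2e1: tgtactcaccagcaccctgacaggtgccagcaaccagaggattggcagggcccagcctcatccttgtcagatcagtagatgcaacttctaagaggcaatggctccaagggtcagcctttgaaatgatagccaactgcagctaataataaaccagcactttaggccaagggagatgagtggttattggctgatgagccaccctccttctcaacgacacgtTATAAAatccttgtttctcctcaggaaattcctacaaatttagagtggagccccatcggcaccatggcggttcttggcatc
The Cyp2f2 window held neither motif, the Cyp2b10 window held GCGTG at 2 places and the Cyp2e1 window held TATAAA at 1 place, and no matches overlapped. Por's window held GCGTG at 3 places, and the windows of Cyp4b1, Cyp2s1, Fmo2 and Aldh1a1 held neither. Of 32817 such windows over all genes, 13.6% held TATAAA and 32.4% held GCGTG. A match is a run of letters and says nothing of binding.

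Cyp2f2, the naphthalene-activating P450, stood at 2798, 2521 and 3296 CPM in RIC+DE and at 4249, 3812 and 4187 CPM in the DE+RIC libraries. It stood at 3962, 2764 and 4688 CPM in DE+PFD, at 8003, 3999 and 3177 CPM in RIC+DE+PFD, and at 3670, 3221 and 2668 CPM in DE+PFD+RIC. In DE it stood at 3321, 5065 and 3308 CPM, in RIC at 2524, 3205 and 2931 CPM, and in C at 4418, 2830 and 3122 CPM. The RIC+DE libraries all lay below the DE libraries, the closest being 3296 CPM in RIC+DE and 3308 CPM in DE, while DE overlapped C and RIC overlapped C. Here and for the enzymes below, the share of all genes whose libraries lie apart in this way is not given. Such separations are therefore listed for their values and not as a trait of these enzymes. Ordered by group mean, RIC+DE+PFD came first, at 5060 ± 2582 CPM (SD, n = 3), followed by DE+RIC, DE, DE+PFD, C, DE+PFD+RIC and RIC, with RIC+DE last at 2872 ± 393 CPM. No step between neighbours in that order was larger than the wider SD of the pair.

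Cyp2b10, a P450 that in liver answers to the constitutive androstane receptor, averaged 260 ± 107 CPM in RIC+DE, 295 CPM in DE+RIC, where the libraries spanned 284 to 311 CPM, and 260 ± 49.7 CPM in DE+PFD (SD, n = 3 each). Its mean was 397 ± 49.8 CPM in RIC+DE+PFD and 288 ± 79.4 CPM in DE+PFD+RIC, against 292 ± 88.8 CPM in DE, 232 ± 28.3 CPM in RIC and 276 ± 100.2 CPM in C. RIC+DE+PFD stood first in the order, and its lowest library, at 353.5 CPM, lay above the highest of the next group, DE+RIC, at 311 CPM, but below the highest of RIC+DE (384 CPM), DE+PFD+RIC (379 CPM), DE (381 CPM) and C (391.5 CPM). The remaining neighbours in the order did not differ beyond their spread. Reads of Cyp2b10 may be shared with other genes of the Cyp2b cluster, since how reads with several matches were counted is not stated.

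Cyp4b1, a P450 of lung that oxidises fatty acids and activates 4-ipomeanol, had the same leading group. Its mean was 737 ± 171 CPM in RIC+DE, 918 ± 54.6 CPM in DE+RIC, 896 ± 68.8 CPM in DE+PFD, 1083 ± 124 CPM in RIC+DE+PFD and 831 ± 184.5 CPM in DE+PFD+RIC. The means were 840.5 ± 178 CPM in DE, 809 ± 3.60 CPM in RIC and 792.5 ± 39.0 CPM in C. The lowest RIC+DE+PFD library, at 985 CPM, lay above the highest DE+RIC library, at 954 CPM, and below the highest DE library, at 1012 CPM. Cyp2s1, a P450 of epithelia outside the liver, was the flattest by group of the P450s. Its 8 group means lay between 145 and 169.5 CPM, with SDs of 14.6 to 43.4 CPM, and no neighbours in their order differed beyond their spread.

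Cyp2e1, the P450 of ethanol and small solvents, stood at 161, 24.1 and 38.4 CPM in RIC+DE, at 23.6, 25.1 and 18.1 CPM in DE+RIC and at 53.3, 28.3 and 35.5 CPM in DE+PFD. It stood at 36.6, 53.7 and 24.8 CPM in RIC+DE+PFD and at 56.8, 19.0 and 38.5 CPM in DE+PFD+RIC. In DE it stood at 192, 36.4 and 51.6 CPM, in RIC at 21.3, 29.2 and 25.1 CPM and in C at 27.4, 19.8 and 20.1 CPM. All 3 DE libraries lay above all 3 C libraries and above all 3 RIC libraries. The means of DE (93.4 ± 85.9 CPM) and RIC+DE (74.5 ± 75.3 CPM) are each set by 1 library.

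Fmo2, the main flavin-containing monooxygenase of lung in most mammals, stood at 1445, 1808 and 873 CPM in RIC+DE, at 636, 704 and 728 CPM in DE+RIC and at 1049, 793 and 688 CPM in DE+PFD. It stood at 371, 1355 and 1261 CPM in RIC+DE+PFD and at 1363, 874 and 913 CPM in DE+PFD+RIC. In DE it stood at 398, 755 and 563 CPM, in RIC at 1158, 637.5 and 537 CPM and in C at 1482, 494 and 601.5 CPM. The libraries of RIC+DE and of DE+PFD+RIC all lay above those of DE, while DE overlapped C. The share of all genes that lie apart in the same way is not given. In both RIC and C the single March library was the high one, at 1158 and 1482 CPM. Fmo1, its relative, kept to group means between 401 and 459 CPM, with no neighbours differing beyond their spread.

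Aldh1a1, which makes retinoic acid from retinaldehyde and clears reactive aldehydes, averaged 1612 ± 112 CPM in RIC+DE, 1524 ± 58.1 CPM in DE+RIC and 1796 ± 462 CPM in DE+PFD. Its mean was 1848 ± 150 CPM in RIC+DE+PFD and 1405 ± 462 CPM in DE+PFD+RIC, against 1280 ± 432 CPM in DE, 1200 ± 86.9 CPM in RIC and 1471 ± 722 CPM in C. The highest library of all was C library 1, at 2299 CPM and dated March, while the October libraries of C stood at 975.5 and 1139 CPM. Aldh1a7, a close copy of this gene, averaged 131 ± 35.9 CPM over the 24 libraries, and reads may be split between the 2.

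Por, the electron donor of the P450s, stood at 359.5, 440 and 368 CPM in RIC+DE and at 424, 529 and 404 CPM in DE+RIC. It stood at 278, 394 and 341 CPM in DE+PFD, at 379, 575 and 498 CPM in RIC+DE+PFD and at 368, 404 and 454 CPM in DE+PFD+RIC. In DE it stood at 396, 518 and 430 CPM, in RIC at 275.5, 395 and 383 CPM and in C at 383, 388 and 421 CPM. The DE+PFD libraries and the RIC libraries all lay below the DE libraries, and the other 5 groups overlapped DE. The March libraries averaged 362 ± 53.7 CPM (n = 9) and the October libraries 439 ± 66.9 CPM (n = 14).

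None of the 9 enzymes passed the test in any of 10 comparisons of groups, and neither did any other gene. The test was edgeR's quasi-likelihood test with a term for the date, with Benjamini-Hochberg adjustment over all 17490 genes and a threshold of 0.05, and the share of all genes called was 0% in each of the 10. Other tools called few genes: DESeq2 called between 2 and 80 genes per comparison and limma with quality weights between 0 and 166. DESeq2 called none of the 9 in any comparison, and limma called Fmo2 in 1 of them. At an unadjusted p under 0.05, 1 of the 9 enzymes passed in 7 of the comparisons and 0 in the other 3 (RIC against C, DE+PFD against DE, and pirfenidone against none). Those enzymes are given below beside the share of all genes at that level, and none of them is a call.

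**Figure D2:**
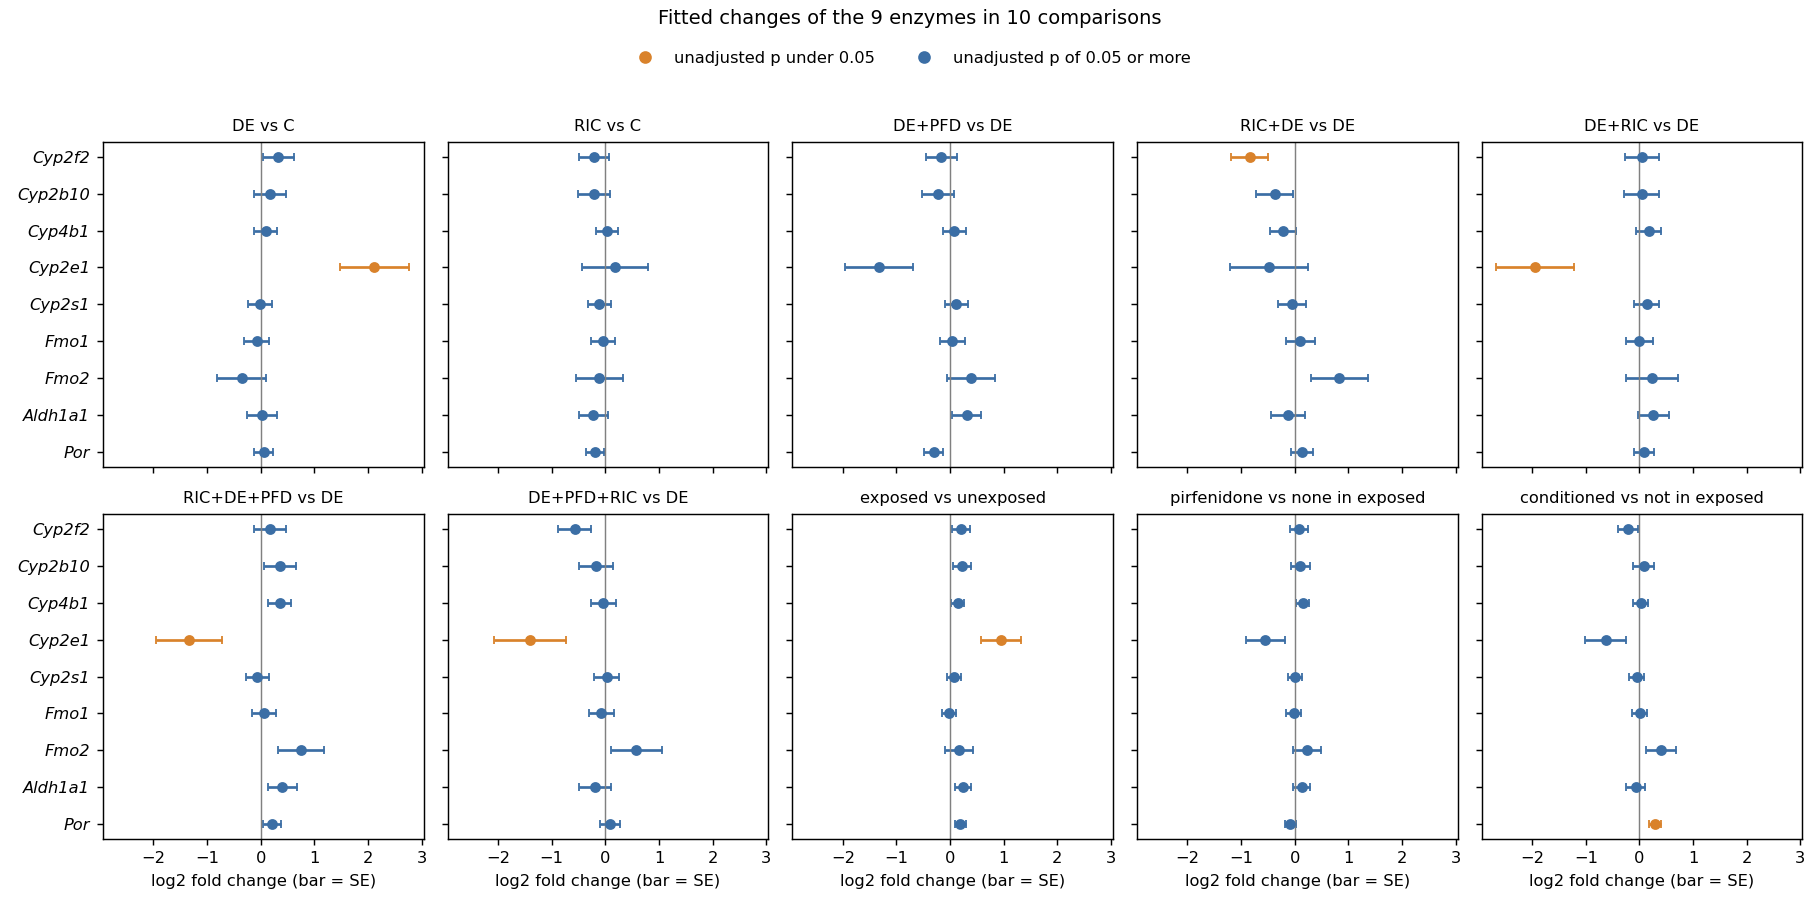
Fitted log2 fold change of each enzyme (points, bars are 1 SE) in each of the 10 comparisons, the group named first over the one named second, with orange for an unadjusted p under 0.05. Cyp2e1 has the widest bars and the points farthest from 0, from 2.12 in DE against C to -1.95 in DE+RIC against DE, and no point passed after adjustment.

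The comparison of DE with C asks what diesel exhaust alone did to these enzymes. Of the 9, 6 had a log2 fold change above 0 and 3 below, with a median of 0.06, against -0.000574 over all genes tested. Cyp2e1 was the one with an unadjusted p under 0.05, which 3.33% of all genes had. Its log2 fold change was 2.12 ± 0.65 (SE), with an edgeR adjusted p of 0.988. Without DE library 1 the log2 fold change of Cyp2e1 was 1.03, and among October libraries alone it was 2.25. Cyp2f2 had a log2 fold change of 0.33 ± 0.29 in DE against C, with an edgeR adjusted p of 0.988. That is within the spread between libraries, and its value without DE library 2 was 0.10.

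Fat cell markers moved with Cyp2e1 in the same libraries. The 9 adipocyte markers, among them Adipoq, Plin1 and Cidec, all had a log2 fold change above 0 in DE against C, with 8 at an unadjusted p under 0.05, 0 called and a median of 2.52. Their summed level was 2752 CPM in DE library 1, and the 3 DE libraries spanned 307 to 2752 CPM, against 136 to 301 CPM in C. In RIC+DE they spanned 118 to 1589 CPM, with library 1 the highest. Adipoq, the hormone gene that defines fat cells, stood at 196, 16.7 and 49.5 CPM in DE and at 7.31, 10.7 and 20.1 CPM in C, and of the 9 only Ucp1 was at 0 in any of these 6 libraries, in C library 2. Hepatocyte markers, chosen because Cyp2e1 is abundant in liver, summed to 3.13 to 9.30 CPM in DE and 0.43 to 1.05 CPM in C, with Cyp3a11 and Cps1 at 0 in all 6. They summed to 2.79 to 8.24 CPM in DE+RIC, where Cyp2e1 stood at 18.1 to 25.1 CPM. Of the 8 hepatocyte markers 2 passed the filter on low counts. In DE against C both had a log2 fold change above 0 at an unadjusted p under 0.05, with 0 called and a median of 4.84. The part of fat in the Cyp2e1 difference was not tested, and in bulk samples fewer cells of a type and less RNA per cell cannot be told apart.

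Over the 23 libraries of March and October, each centred on the mean of its date, Cyp2e1 and the mean log2 CPM of the adipocyte markers gave a Pearson r of 0.903 and a Spearman rho of 0.750. Adjusted over 54 such relations, all chosen after the values were seen, the permutation p was 0.00027 for r, from a raw p of 1e-05 that is the smallest 100000 resamples can give, and 0.00297 for rho. Without DE library 1 and RIC+DE library 1, the 2 farthest out, r was 0.749. Within March r was 0.956 and within October 0.859. The relation therefore held at both dates and without those libraries. Levels were not centred per group, so differences between groups enter r, and the permutation shuffled libraries across groups. Cyp2e1 and Cyp2f2 gave r = 0.06 and a permutation p adjusted over 8 relations of 0.785.

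RIC against C asks what conditioning did without exposure. Of the 9 enzymes, 2 had a log2 fold change above 0 and 7 below, with a median of -0.11, and 0 had an unadjusted p under 0.05, which 1.2% of all genes had. The smallest p was that of Por, with a log2 fold change of -0.20 ± 0.17 and an edgeR adjusted p of 1.00. Among October libraries alone it was -0.05.

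In the comparisons with DE, 5 treated groups are set against the same 3 DE libraries, so their values are given side by side and are not independent of each other. Cyp2e1 had a log2 fold change below 0 in all 5. It was -0.48 ± 0.72 in RIC+DE, -1.95 ± 0.73 in DE+RIC, -1.32 ± 0.64 in DE+PFD, -1.34 ± 0.62 in RIC+DE+PFD and -1.40 ± 0.66 in DE+PFD+RIC, with edgeR adjusted p of 0.726, 1.00, 1.00, 0.515 and 0.526 in that order. The unadjusted p was under 0.05 in DE+RIC, RIC+DE+PFD and DE+PFD+RIC. Without DE library 1 the log2 fold change of Cyp2e1 was -0.85 in DE+RIC, -0.24 in DE+PFD, -0.24 in RIC+DE+PFD and -0.33 in DE+PFD+RIC. All genes had an unadjusted p under 0.05 in 3.23% of cases for DE+RIC, 2.84% for DE+PFD, 9.52% for RIC+DE+PFD and 9.23% for DE+PFD+RIC. The 9 adipocyte markers had a log2 fold change below 0 in 9 of 9 in DE+RIC, 8 of 9 in DE+PFD, 9 of 9 in RIC+DE+PFD and 9 of 9 in DE+PFD+RIC against DE, with medians of -3.00, -1.02, -2.38 and -1.80. In RIC+DE against DE 2 of the 9 were above 0 and 0 were at an unadjusted p under 0.05, with a median of -0.98.

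RIC+DE against DE asks what conditioning ahead of the exposure did, and here Cyp2f2 was the enzyme with an unadjusted p under 0.05. Its log2 fold change was -0.84 ± 0.34, with an edgeR adjusted p of 0.274, in a comparison where 17.3% of all genes had an unadjusted p under 0.05. The date term bears on this value. Without the date term it was -0.44, and with RIC+DE and DE libraries alone it was -0.42. Without DE library 2, the highest of its group, it was -0.62. Of the 9 enzymes 3 were above 0 and 6 below, with a median of -0.12 against 0.00439 over all genes. Fmo2 had a log2 fold change of 0.83 ± 0.53, with an edgeR adjusted p of 0.389.

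Marker lists in RIC+DE against DE are given beside Cyp2f2, and 0 of their genes were called. Of 14 club cell markers tested other than the 9 enzymes, 10 had a log2 fold change below 0, 3 of them at an unadjusted p under 0.05, and 4 were above 0, 1 of them at that level, against 17.3% of all genes. Their median was -0.53. They summed to 24950 to 32710 CPM in RIC+DE and 39730 to 69630 CPM in DE. Of 10 ciliated cell markers 7 were below 0 with a median of -0.54, but their sums, which carry no date term, overlapped. They were 2037 to 2319 CPM in RIC+DE, inside the 1439 to 2437 CPM of DE. Of 10 alveolar type 2 markers 9 were below 0 with a median of -0.57, and they summed to 13160 to 25230 CPM in RIC+DE and 30210 to 42260 CPM in DE. Their mean log2 CPM overlapped, at 9.088 to 9.883 in RIC+DE and 9.741 to 10.07 in DE. Of the lists outside the lung epithelium, some stood farther from 0. All 5 skeletal muscle markers tested were above 0, all at an unadjusted p under 0.05, with a median of 4.75 and sums of 26.8 to 1958 CPM in RIC+DE, against 27.7 to 47.4 CPM in DE. All 7 cardiac muscle markers were above 0, with a median of 1.20, and all 8 T cell markers were below 0, 6 of them at that level, with a median of -1.04. Scgb1a1, the secretoglobin that defines club cells, stood at 15500, 21100 and 24500 CPM in RIC+DE and at 29800, 55800 and 34500 CPM in DE. The libraries also differed in how their levels ran with gene length. Across genes, the Spearman rho between exon length and a library's deviation from the median of all libraries was 0.376, 0.465 and 0.421 in RIC+DE, against -0.275, -0.307 and -0.210 in DE. The part of cell makeup, length trend and date in the Cyp2f2 value was not tested, and RIC+DE and date cannot be told apart within these 2 groups.

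Averages over groups were compared next. Over the 6 groups with exhaust against RIC and C, 8 of the 9 enzymes were above 0, with a median of 0.19 against 0.00346 over all genes. Cyp2e1 had a log2 fold change of 0.95 ± 0.38, with an edgeR adjusted p of 1.00, where 3.02% of all genes were under 0.05. Over the 3 pirfenidone groups against the matching 3 without it, 5 of 9 were above 0 with a median of 0.08. The smallest p was that of Cyp2e1, at -0.55 ± 0.37, with an edgeR adjusted p of 0.956, where 4.3% of all genes were under 0.05. It was -0.19 without DE library 1 and -0.13 without RIC+DE library 1. Over the 4 conditioned groups with exhaust against DE and DE+PFD, Por had a log2 fold change of 0.28 ± 0.11 and an edgeR adjusted p of 0.703, where 6.7% of all genes were under 0.05. Without the date term that value was 0.15.

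The date on the labels had a fitted difference of its own. March over October, with the groups accounted for, 8 of the 9 were above 0 and 1 below, and 0 passed after adjustment, with 0.00572% of all genes called (1 gene). At an unadjusted p under 0.05, which 14.8% of all genes had, stood 3 enzymes. They were Por, at -0.34 ± 0.11, Aldh1a1, at 0.46 ± 0.18, and Cyp2f2, at 0.41 ± 0.19, with edgeR adjusted p of 0.175, 0.246 and 0.326 in that order.

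Some of the enzymes moved together over the libraries of all groups. With levels centred per date over 23 libraries, 3 of the 8 others followed Cyp2f2 with an adjusted permutation p under 0.05. Levels were not centred per group, so differences between groups enter these r. The permutation shuffled libraries across groups, so its p does not measure movement within groups. Cyp2b10 had r = 0.635 and rho = 0.620 with Cyp2f2, with adjusted permutation p of 0.00488 and 0.014. Without RIC+DE+PFD library 1 and DE library 2, the farthest from the Cyp2f2 median, its r was 0.481, within March 0.600 and within October 0.699. Aldh1a1 had r = 0.486 and rho = 0.571 with Cyp2f2 (adjusted permutation p of 0.0443 and 0.0204), r = 0.608 without those 2 libraries, 0.399 within March and 0.626 within October. Cyp4b1 had r = 0.581 and rho = 0.439 with Cyp2f2 (adjusted permutation p of 0.0154 and 0.1), but r = 0.291 without those 2 libraries, so this relation rests on them. The closest pair of all was Cyp2b10 with Cyp4b1, at r = 0.802.

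For the other 5 the relation with Cyp2f2 did not pass. Por had r = 0.163, Fmo1 0.08, Cyp2e1 0.06, Cyp2s1 -0.06 and Fmo2 -0.407, with adjusted permutation p of 0.729, 0.785, 0.785, 0.785 and 0.113 in that order. RIC+DE+PFD library 1 weighed heavily on 2 of them. Within October Cyp2s1 had r = 0.797 with Cyp2f2 and within March -0.623, and without RIC+DE+PFD library 1 and DE library 1 the r over the remaining libraries was 0.700. Fmo2 had r = -0.769 in March and 0.138 in October, and 0.02 without those 2. In that March library Cyp2f2 was at its highest of all 24, at 8003 CPM, while Fmo2 and Cyp2s1 were at their lowest, at 371 and 110 CPM.

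**Figure D3:**
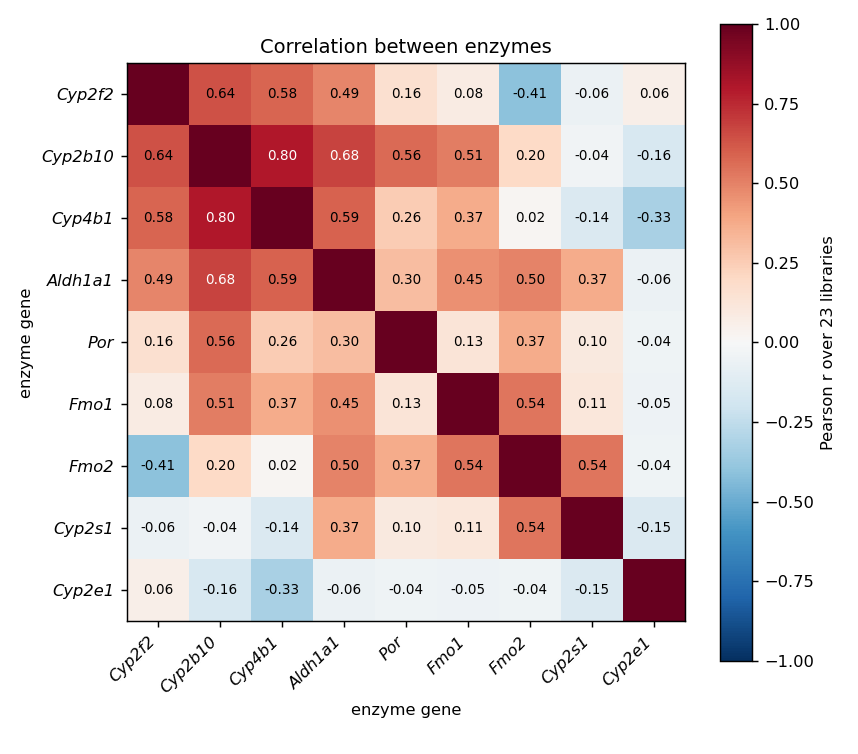
Pearson r between each pair of the 9 enzymes over 23 libraries, from log2 CPM centred on the mean of each date; the colour runs from -1 (blue) to 1 (red). Cyp2b10 and Cyp4b1 form the closest pair, at 0.802, Cyp2f2 and Fmo2 the most opposed, at -0.407, and Cyp2e1 is near 0 or below it with every other enzyme.

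Markers of lung cell types, and the length trend, were set against the 9 enzymes in the same way, in the 54 relations named above, of which 15 had an adjusted permutation p under 0.05. Cyp2f2 had r = 0.786 and rho = 0.802 with ciliated cell markers, with adjusted permutation p of 0.00027 and 0.00054, and r = 0.881 without the 2 libraries farthest out, 0.921 in March and 0.771 in October. With club cell markers other than the 9 it had r = 0.753 and rho = 0.605, but r = 0.502 without RIC+DE+PFD library 1 and RIC+DE library 2. Aldh1a1 had r = 0.629 with the ciliated markers, with 0.202 in March and 0.833 in October, so that relation did not hold within March. The part of cell makeup in these relations was not tested. Fmo2 had r = 0.689 with the length trend, 0.443 without the 2 farthest libraries, and Cyp2f2 had -0.733 with it, -0.424 without them. Over the alternatives the adjusted permutation p of these relations reached 0.36 for Fmo2 and 0.212 for Cyp2f2. Fmo2's exons cover 5609 bases and those of Cyp2f2 2025 bases. For the others r with the length trend was -0.34 for Cyp2b10 (2112 bases), -0.03 for Cyp2e1 (2158) and -0.529 for Cyp4b1 (2256). It was 0.17 for Por (4021 bases), -0.103 for Aldh1a1 (4937), 0.471 for Cyp2s1 (4938) and 0.065 for Fmo1 (6304). The part of exon length was not tested.

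**Figure D4:**
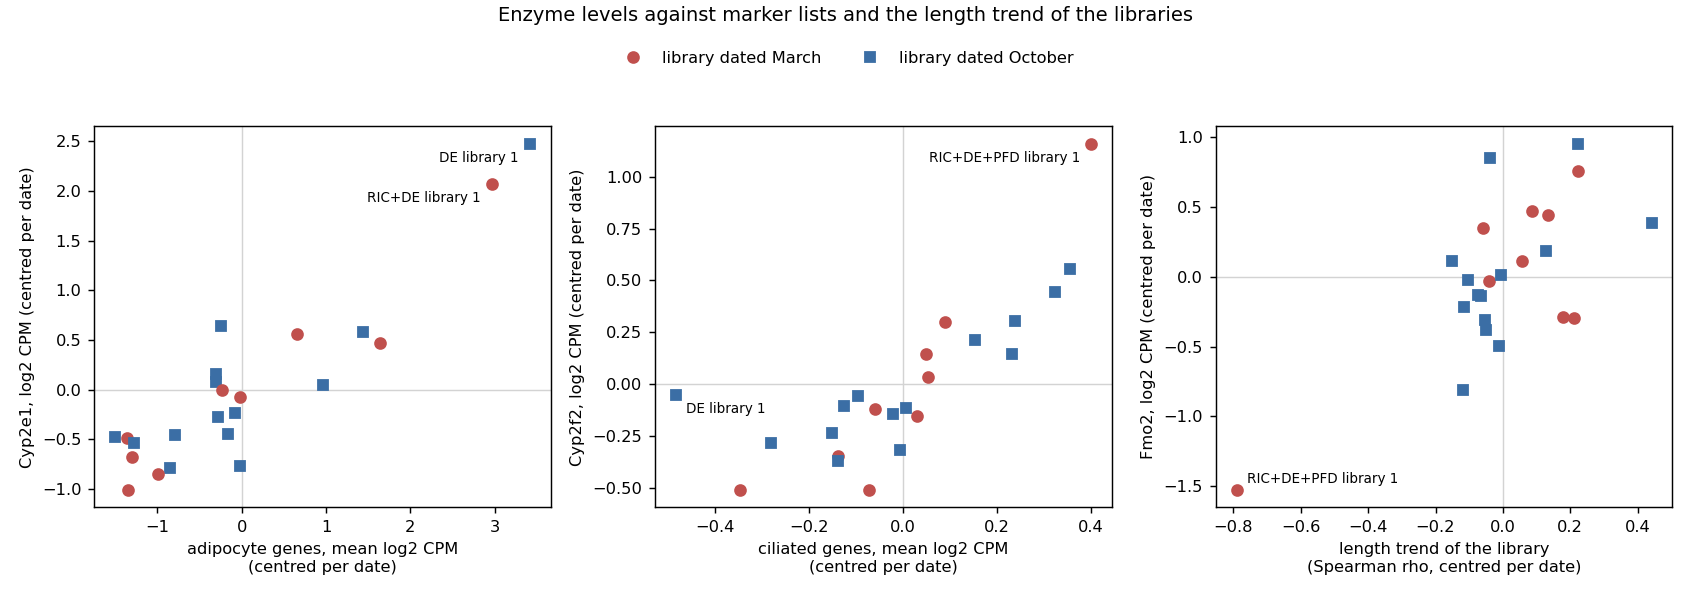
Levels of Cyp2e1, Cyp2f2 and Fmo2 (y axes, log2 CPM centred per date) against adipocyte markers, ciliated cell markers (mean log2 CPM, centred) and the length trend of the library (Spearman rho, centred), with 1 point per library dated March or October. Cyp2e1 runs with the adipocyte markers (r = 0.903, 0.749 without the 2 named libraries), Cyp2f2 with the ciliated markers (r = 0.786), and in the plot of Fmo2 RIC+DE+PFD library 1 lies far from the rest.

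Outside the 9, the genes most alike in level to an enzyme over the 23 libraries were looked up by Pearson r, among named genes of at least 1 CPM on average. For Cyp2f2 they were the microsomal glutathione transferase Mgst1 (r = 0.945, with 0.985 in March and 0.937 in October), the purine synthesis enzyme Paics (0.942), the cilia gene Cfap126 (0.928), the lactate dehydrogenase Ldhb (0.925) and Emb (0.922). Cfap126 is also on the list of ciliated markers. For Fmo2 the nearest was Timp3, an inhibitor of metalloproteinases, at r = 0.971, and for Aldh1a1 the carboxylesterase Ces1d at 0.894. Cyp2s1 was nearest to Maats1 (0.909), Cyp2b10 to Dnaja2 (0.900), Cyp4b1 to Nudc (0.895), Fmo1 to Myzap (0.808) and Por to Tollip (0.741). These points share libraries, depth and the dates, and the values are descriptions.

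Other genes of the pathway were read from 4 lists. Of 26 further oxidising enzymes of phase I, 23 passed the low-count filter and 0 were called in the 10 comparisons. In DE against C, 12 of the 23 were above 0, 2 of them at an unadjusted p under 0.05 (Cyp1b1 and Cyp2j6) and 0 below 0 at that level, which 3.33% of all genes reached. Cyp1b1, which the aryl hydrocarbon receptor induces, averaged 17.4 ± 7.56 CPM in DE and 11.9 ± 7.54 CPM in C, with a log2 fold change of 0.94 ± 0.39 and an edgeR adjusted p of 0.988. Cyp1a1, the best known target of the same receptor, spanned 7.75 to 8.60 CPM in DE and 6.70 to 153 CPM in C, where the March library was the high one. In the average of conditioned groups Cyp1a1 had a log2 fold change of -2.01 ± 0.67, with an edgeR adjusted p of 0.634, and its March over October value was 2.76 ± 0.83. The groups in that average spread widely. Cyp1a1 spanned 4.67 to 293.9 CPM in DE+PFD, on the unconditioned side, and 6.92 to 136.2 CPM in RIC+DE, on the conditioned side. In RIC+DE against DE, where 17.3% of all genes had an unadjusted p under 0.05, the 3 of the 23 at that level were Cyp2d22 (0.65 ± 0.20), Aldh1a7 (-0.73 ± 0.31) and Fmo4 (1.16 ± 0.52), each with an edgeR adjusted p of 0.274 to 0.278.

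Of 16 conjugating enzymes of phase II, 13 passed the filter and 0 were called. In RIC+DE against DE 12 of the 13 were below 0, with 5 at an unadjusted p under 0.05, beside the same 17.3% of all genes, and a median of -0.63, and Mgst1 had the smallest p at -1.28 ± 0.45 (edgeR adjusted p of 0.274). In RIC+DE+PFD against DE 11 of the 13 were above 0, with 3 at that level, beside 9.52% of all genes, and a median of 0.37. Gsta3, a glutathione transferase, averaged 515 ± 143 CPM in RIC+DE+PFD and 229 ± 72.8 CPM in DE, with a log2 fold change of 0.93 ± 0.29 and an edgeR adjusted p of 0.355. Of 8 genes of electron supply and heme all passed the filter, and in RIC+DE against DE all 8 were below 0. At an unadjusted p under 0.05, beside 17.3% of all genes, were Hmox1, heme oxygenase, at -0.99 ± 0.28 and Cyb5a, cytochrome b5, at -1.02 ± 0.40. Each had an edgeR adjusted p of 0.274. Of 12 regulators, the receptors and factors that drive such genes, 11 passed the filter. In DE against C 3 of the 11 were above 0 and 0 reached an unadjusted p under 0.05. In RIC+DE against DE Rxra (0.51 ± 0.21) and Arnt (0.63 ± 0.29) reached it, beside the same 17.3% of all genes, with edgeR adjusted p of 0.274 and 0.283.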

How the data were processed

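Per the labels' protocols, the libraries were strand-specific and made from poly(A) RNA of whole lung. Reads were trimmed with fastp 0.23.4, aligned to GRCm39 with STAR 2.7.11b and counted with featureCounts, per the submitters' processing notes, which also name FastQC 0.12.1, R 4.4.1 and DESeq2. The deposited values are raw counts per gene for 78275 genes in 24 libraries. Which annotation release and strand setting were used, and how multiply aligned reads were counted, is not stated.

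Symbols and exon lengths came from a GRCm38 annotation matched by gene identifier, with 51486 genes named, and these held 98.45% of the counts. All counts were fitted in edgeR 4.0.16 (R 4.3.3) with TMM scaling, edgeR's filter on low counts, and terms for group and date, over all 24 libraries. Benjamini-Hochberg adjustment ran over the 17490 genes kept. Correlations used log2 CPM (prior count 2), centred per date but not per group over 23 libraries, with two-sided permutation tests of 100000 resamples across all of them. The alternatives were DESeq2 1.42.0, limma 3.58.1 and other filters, scalings, covariates and subsets of libraries.

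All 9 enzymes are described. Fold changes are given for those with an unadjusted p under 0.05 in a comparison or, where there was none, the smallest p, and for Cyp2f2 in DE against C. For the other enzyme lists the same members are counted and up to 3 named, and for likeness the 5 nearest genes of Cyp2f2 and 1 for each other enzyme, of which that for Cyp2e1 is not reported here. Fmo2 in RIC+DE against DE and Cyp2e1 in every comparison with DE were added after their values were seen. The enzymes, lists and comparisons were chosen with earlier results of these data known. Within groups, a chi-square of the counts found no library deposited again under another name.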

Additional observations from a re-analysis of the deposited data

Results flagged for a closer look

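For 3 enzymes every library of a treated group lay on one side of the mean of the group it is set against in one setting of a treatment, and every library on the other side in another setting. The share of all genes that meet this rule is not given here, so the 3 are listed for their values and not as a trait of these enzymes. The values are log2 ratios of group mean CPM, with the date not accounted for, and the differences between settings were not tested. For Cyp2f2, pirfenidone gave 0.817 in RIC+DE+PFD against RIC+DE and -0.358 in DE+PFD+RIC against DE+RIC. RIC+DE+PFD library 1 stood at 8003 CPM, against 3999 and 3177 CPM in the others of its group. For Fmo2, pirfenidone gave 0.56 in DE+PFD against DE and 0.607 in DE+PFD+RIC against DE+RIC, but -0.466 in RIC+DE+PFD against RIC+DE. There RIC+DE+PFD library 1 stood at 371 CPM and the others of its group at 1355 and 1261 CPM, against 1445, 1808 and 873 CPM in RIC+DE. For Por, conditioning ahead of the exposure gave -0.204 in RIC+DE against DE and 0.519 in RIC+DE+PFD against DE+PFD. With the date term the fitted log2 fold change of Por in RIC+DE against DE was 0.14 ± 0.20 (SE), so the sign of the first value depends on whether a date term is fitted. The RIC+DE libraries are all dated March and the DE libraries all October.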

How the results depend on the processing

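With no filter on low counts edgeR called 1 of the 9 enzymes, Cyp2e1, in 8 of the 10 comparisons, all but RIC against C and RIC+DE against DE, with adjusted p of 5.86e-14 to 0.0175. In those 8 between 0.276% and 0.839% of all genes were called. The log2 fold changes of Cyp2e1 stayed close to those above (2.12 in DE against C) with smaller SEs (0.25), and the cause was not tested. Fmo2 was the 1 enzyme called in RIC+DE+PFD against DE with October libraries alone (1.18, edgeR adjusted p of 0.0438) and by limma with quality weights (1.12, limma adjusted p of 0.0386). All genes were called there in 0.235% and 0.949% of cases. Fmo2 was also the 1 called in RIC+DE against DE with those groups alone (1.28, edgeR adjusted p of 0.0258), where 23.3% of all genes were called. That fit had no date term, because RIC+DE is all March and DE all October. Every other alternative, each left-out library included, called 0 of the 9. Over all genes the counts moved from 0 to between 63 and 1129 with no filter, up to 102 with no date term, up to 41 with October libraries alone, up to 54 without 1 library, and 3784 for RIC+DE against DE with those groups alone. The log2 fold changes recomputed were those of Cyp2e1 and Cyp2f2 in DE against C and of 1 enzyme in each other comparison (Cyp2f2 in RIC+DE against DE, Por in RIC against C and in the average of conditioned groups, Cyp2e1 elsewhere), and none of these turned its sign. Cyp2e1 in the average of pirfenidone groups ranged between -0.69 and -0.12. Leaving out 1 library at a time, Cyp2e1 in DE against C ranged between 1.03 (without DE library 1) and 2.51 (without DE library 2).

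The r of Cyp2s1 with Cyp2f2 changed sign with no centring (0.00256) and without RIC+DE+PFD library 1 and DE library 1 (0.700), and that of Fmo2 with Cyp2f2 without those 2 libraries (0.0248). Without them Cyp2f2 with club cell markers had r = 0.563 and an adjusted permutation p of 0.0726, and Cyp4b1 with Cyp2f2 had r = 0.362 and 0.215. The count of enzymes that follow Cyp2f2 at an adjusted permutation p under 0.05 was 3, and 2 with no centring. It was also 3 without those 2 libraries, but with Cyp2s1 (adjusted permutation p of 0.00352) in place of Cyp4b1.

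Of 84 pairs of libraries with the same replicate number, 16 had deviations from their group means correlated over 0.1, with r between -0.389 and 0.412. Pairs with different numbers were not looked at, so these values cannot decide whether replicate numbers pair the libraries. With the replicate number as a block, 0 of the 9 enzymes were called in each comparison, and 0 to 16 of all genes with the date term or 0 to 30 without it. Under that block and the date term Cyp2e1 had a log2 fold change of 1.25 in DE against C.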
